A study of Mus musculus with 5 samples.

Results

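Neuropeptides are short signalling molecules that neurons cut out of larger precursor proteins. The set described here holds 43 genes. Of these, 33 encode peptide precursors, 5 encode the enzymes and partner proteins that process them, and 5 encode granins and Vgf, acidic cargo proteins of the granules in which peptides are stored. The 43 names were listed by symbol, and a gene was matched to a probe through the RefSeq accession printed for that probe in the scanner files. All 43 were found among the 21149 genes named on the array, and all 43 were among the 16891 genes tested.

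Total RNA was measured on single-colour Agilent mouse arrays, 1 array per sample. The tumour samples were 3 gliomas labelled as brain tumour from the MADM model (mosaic analysis with double markers, a method that leaves sparse, colour-marked mutant cells in a mouse) and the comparison samples were 2 normal brains. All 5 samples were taken at postnatal day 150. The labels give no strain, sex, mutated gene or brain region and do not say whether replicates came from separate animals. The p-values therefore describe only the spread among these 5 arrays, which may be technical.

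A precursor enters the secretory pathway, is sorted into dense-core granules with the help of granins, and is cut at pairs of basic residues by the convertases Pcsk1 and Pcsk2. Carboxypeptidase E (Cpe) then trims the basic residues that the cut leaves, and the amidating enzyme Pam finishes many peptides. In the brain some precursors, such as those of vasopressin and oxytocin, are made by small groups of hypothalamic neurons. Others, such as somatostatin and cholecystokinin, are made by neurons spread over cortex, hippocampus and striatum.

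Many of these genes are switched on through the cAMP response element, written TGACGTCA, a site known to bind the factor Creb1. The letters were searched in the 250 bases before each annotated start in RefSeq (GRCm38.p6), a window available for 34 of the 43 genes. They were present in 6 of these 34 genes (17.6%), against 478 of 27025 genes in the whole promoter table (1.77%). TGACGTCA reads the same on both strands. The shorter TGACG, searched with its reverse complement CGTCA and contained in the full letters, was present in 20 of 34 genes (58.8%), against 19.8% of all genes. A match is a description of the letters and not evidence of binding. The 6 promoters with the full letters are shown because their genes did not all move the same way in glioma, with Ucn higher and the other 5 lower. Each is written 5′ to 3′ on the strand of the gene, up to the base before the start, with TGACGTCA in capitals.

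Sst, chr16:23890845-23891094, minus strand: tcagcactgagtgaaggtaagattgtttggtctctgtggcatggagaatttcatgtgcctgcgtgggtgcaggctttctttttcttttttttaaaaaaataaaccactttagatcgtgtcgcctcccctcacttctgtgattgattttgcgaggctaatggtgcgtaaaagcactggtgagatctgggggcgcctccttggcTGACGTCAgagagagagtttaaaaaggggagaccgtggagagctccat

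Pcsk1, chr13:75089607-75089856, plus strand: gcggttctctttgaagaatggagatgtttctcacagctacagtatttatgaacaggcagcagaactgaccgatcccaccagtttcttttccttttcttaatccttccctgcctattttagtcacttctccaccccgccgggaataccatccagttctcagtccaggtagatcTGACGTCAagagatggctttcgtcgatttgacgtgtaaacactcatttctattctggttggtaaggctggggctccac

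Scg2, chr1:79440027-79440276, minus strand: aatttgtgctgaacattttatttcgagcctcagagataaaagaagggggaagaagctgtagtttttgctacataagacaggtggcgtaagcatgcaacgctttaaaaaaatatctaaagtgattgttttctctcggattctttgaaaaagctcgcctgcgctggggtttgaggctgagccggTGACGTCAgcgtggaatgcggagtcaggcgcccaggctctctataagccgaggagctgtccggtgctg

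Chgb, chr2:132781392-132781641, plus strand: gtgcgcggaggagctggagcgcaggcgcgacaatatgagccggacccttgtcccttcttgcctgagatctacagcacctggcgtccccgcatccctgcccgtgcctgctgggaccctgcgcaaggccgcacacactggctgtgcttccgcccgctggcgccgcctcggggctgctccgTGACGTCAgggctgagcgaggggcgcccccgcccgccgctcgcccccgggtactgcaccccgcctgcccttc

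Cartpt, chr13:99900684-99900933, minus strand: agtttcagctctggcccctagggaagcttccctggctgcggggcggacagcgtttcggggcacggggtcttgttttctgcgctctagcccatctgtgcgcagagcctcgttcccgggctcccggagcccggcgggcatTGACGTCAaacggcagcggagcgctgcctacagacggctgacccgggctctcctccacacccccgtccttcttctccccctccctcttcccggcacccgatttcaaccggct

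Ucn, chr5:31138896-31139145, minus strand: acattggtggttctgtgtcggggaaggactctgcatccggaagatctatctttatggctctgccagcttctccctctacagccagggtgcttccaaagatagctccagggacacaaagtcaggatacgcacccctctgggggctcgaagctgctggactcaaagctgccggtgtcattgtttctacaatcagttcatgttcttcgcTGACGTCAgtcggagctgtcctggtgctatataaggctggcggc

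Counted from the start, with -1 as the base before it, the first T of the full letters lay at -44 in Ucn and -48 in Sst. It lay at -68 in Scg2, -72 in Chgb, -78 in Pcsk1 and -112 in Cartpt. The windows of Avp and Oxt held neither the full nor the short letters.

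Between 65.92% and 70.3% of spots other than controls were well above background on the glioma arrays, against 61.45% and 63.96% on the normal brain arrays, without saturation of any such spot. The 5 arrays shared 1 slide and 1 scan time. Gliomas occupied slide row 1 and normal brains row 2, so the row and the group cannot be told apart. Xist RNA was well above background on glioma array 3 and on none of the other arrays. Oligodendrocyte progenitor genes summed to between 407 and 468 on the glioma arrays, against 48.0 and 48.6 on the normal brain arrays. These sums are of linear levels, where 1 is the 75th percentile of the array's spots. The 15 pan-neuronal genes summed to between 104 and 146 on the glioma arrays, against 816 and 820 on the normal brain arrays, and all 15 fell in glioma (median log2 change -3.18). Part of the members' differences that goes with neuronal content was not tested, and in bulk tissue fewer neurons and less RNA per neuron cannot be told apart.

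Most of the 43 genes were lower in glioma. By limma across all genes, with Benjamini-Hochberg adjustment and an adjusted p under 0.05, 34 of 43 were lower, 5 were higher and 4 did not pass. Of all genes tested, 27.8% were lower, 23.6% higher and 51.4% called in either direction by the same rule. The median log2 change of the 43 genes was -2.59, against -0.05 over all genes tested. Values of glioma and normal brain did not overlap in 41 of the 43, with glioma lower in 34 and higher in 7, while 74.1% of all genes tested showed no overlap, with glioma lower in 38.8% and higher in 35.2%. The 34 members whose probe was well above background on all 5 arrays included 30 lower genes and 1 higher gene. In 3 members the probe was detected in a single group, so a difference was built in. These were Ucn3, in normal brain only, and Nmu and Rln3, in glioma only. Gnrh1, Npvf and Ucn were detected on 1 of 2 normal brain arrays, and Pmch on 1 of 3 gliomas. These too passed the filter of 2 detected arrays only through the group where they were brighter. Of the 5 higher members, Npw alone was detected on all 5 arrays. Without scaling between arrays, as in the authors' deposited value table, the median of all genes moved to 0.31 and the calls over all genes turned to 63.7% higher, against 46.0% with scaling. There 31 of the 43 were lower and 5 higher.

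**Figure D1:**
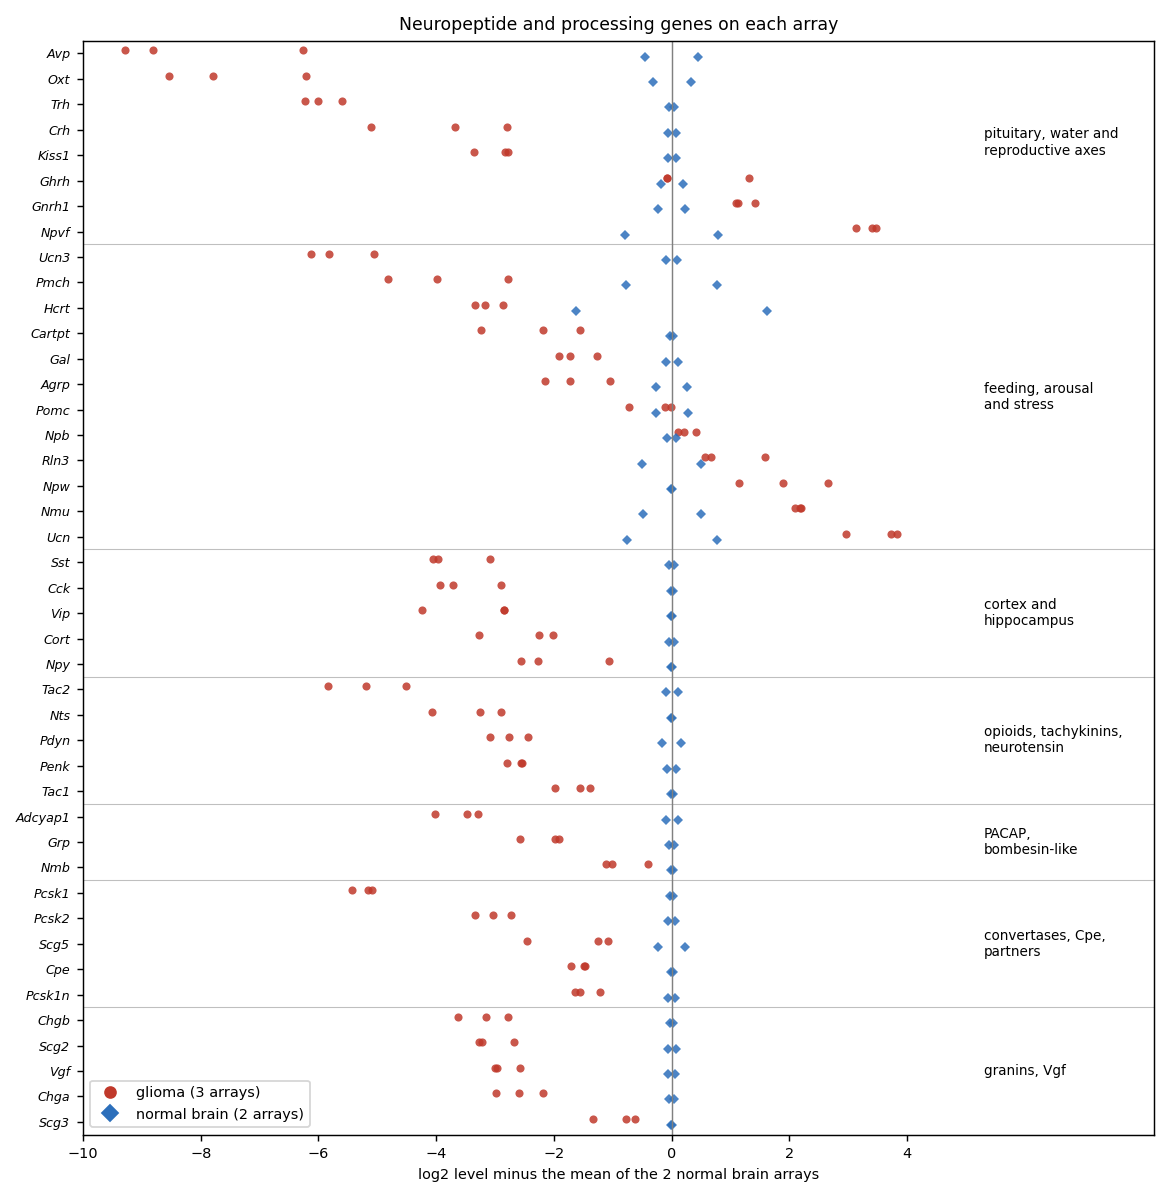
Log2 level of each of the 43 genes on every array, with the mean of the 2 normal brain arrays set to 0 for each gene (horizontal axis), genes down the page grouped by role, glioma arrays as circles and normal brain arrays as diamonds. Most glioma circles lie left of the diamonds, Avp and Oxt farthest, while Npvf, Npw, Nmu, Ucn and Gnrh1 lie to the right.

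Levels below are log2 of the processed signal relative to the array's 75th percentile, given for glioma arrays 1, 2 and 3 and then normal brain arrays 1 and 2. They describe 1 probe at a time, and levels of different probes cannot be compared. Changes are glioma minus normal brain on the log2 scale, ± the standard error of the fit, with n = 3 and n = 2. Under normexp, an alternative background correction that adds 50 to every signal and so shrinks the changes of dim probes, 14 of the 43 changes moved by over 1.5 times, and their values are given with the genes.

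Among hormones of the hypothalamus that act through the pituitary, on water balance or on reproduction, 5 of 8 genes were lower, 2 were higher and 1 did not pass. Beside these counts, and those of the groups below, stand 27.8% lower and 23.6% higher over all genes tested. Avp, the precursor of vasopressin, the hormone of water retention, had levels of -2.73, -5.76 and -5.28 in glioma, against 3.97 and 3.08 in normal brain. Oxt, the precursor of oxytocin, which acts in birth, milk release and social behaviour, had levels of -0.82, -3.15 and -2.40 in glioma, against 5.07 and 5.71 in normal brain. Both were well above background on every array, and in both glioma 1 lay above the other gliomas and still far below either normal brain. The lowest levels well above background were -6.08 on glioma 2 and -6.15 on glioma 3, so Avp lay near that floor on these arrays. The change was -8.12 ± 0.97 for Avp (277-fold lower, adjusted p = 0.00223) and -7.51 ± 0.71 for Oxt (182-fold lower, adjusted p = 0.00112). Both sizes depended on glioma 1, without which the change was -9.05 for Avp and -8.16 for Oxt. Avp was also at -7.53 without glioma 2 and at -6.55 with normexp.

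Trh, the precursor of thyrotropin-releasing hormone, had levels of -3.07, -3.69 and -3.48 in glioma, against 2.49 and 2.58 in normal brain. The arrays of each group lay close together, and the change of -5.95 ± 0.22 (61.7-fold lower, adjusted p = 0.000333) had a smaller standard error than that of Avp and was -5.13 with normexp. Crh, the precursor of corticotropin-releasing hormone, which starts the stress response, had levels of -3.01, -2.12 and -4.44 in glioma, against 0.60 and 0.74 in normal brain. Its gliomas spread over 2.32 log2 units and still lay below both normal brains (-3.86 ± 0.68, adjusted p = 0.00763). The change of Crh was -3.24 without glioma 3 and -3.16 with normexp. A block for the replicate number also gave -3.24, since glioma 3 has no normal brain of its number and drops out of that estimate. Kiss1, the precursor of kisspeptin, which drives the release of gonadotropin-releasing hormone, had levels of -4.97, -4.92 and -5.50 in glioma, against -2.21 and -2.08 in normal brain. Detection above background held on 2 of 3 glioma arrays, the change was -2.99 ± 0.23, and a dimmer probe of the gene gave -2.06 ± 0.33. With normexp the change of Kiss1 was -1.49.

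The other hormones of this group went different ways. Npvf encodes the precursor of RFamide-related peptides, which restrain the reproductive axis. It had levels of -2.27, -2.61 and -2.33 in glioma, against -4.95 and -6.53 in normal brain, where 1 of 2 arrays was well above background. The rise was 3.34 ± 0.48 (adjusted p = 0.00395), with 1.58 log2 units between the normal brains. It was 4.13 without normal brain array 1, 2.55 without array 2 and 1.22 with normexp. Gnrh1, the precursor of gonadotropin-releasing hormone itself, was higher on its brighter probe, with levels of -3.89, -3.93 and -3.61 in glioma, against -4.79 and -5.25 in normal brain (1.21 ± 0.21, adjusted p = 0.00678). A dimmer Gnrh1 probe, detected in 1 of 3 gliomas and in both normal brains, gave -0.82 ± 0.26, so the direction for this gene depends on the probe. The dimmer probe had -5.24, -6.02 and -5.8 in glioma, against -4.87 and -4.86 in normal brain. The brighter probe was thus picked through its glioma levels, and the higher call of Gnrh1 rests on that choice. The mean of both probes was 0.19 with an adjusted p of 0.415, normexp gave 0.21 with an adjusted p of 0.233, and the brighter probe lost its call without normal brain array 2 (adjusted p = 0.0590). Ghrh, the precursor of growth hormone-releasing hormone, did not pass (0.38 ± 0.49, 95% interval -0.87 to 1.62), with -0.48, -1.87 and -1.87 in glioma, against -1.60 and -1.97 in normal brain, and without glioma 1 its change was -0.09.

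**Figure D2:**
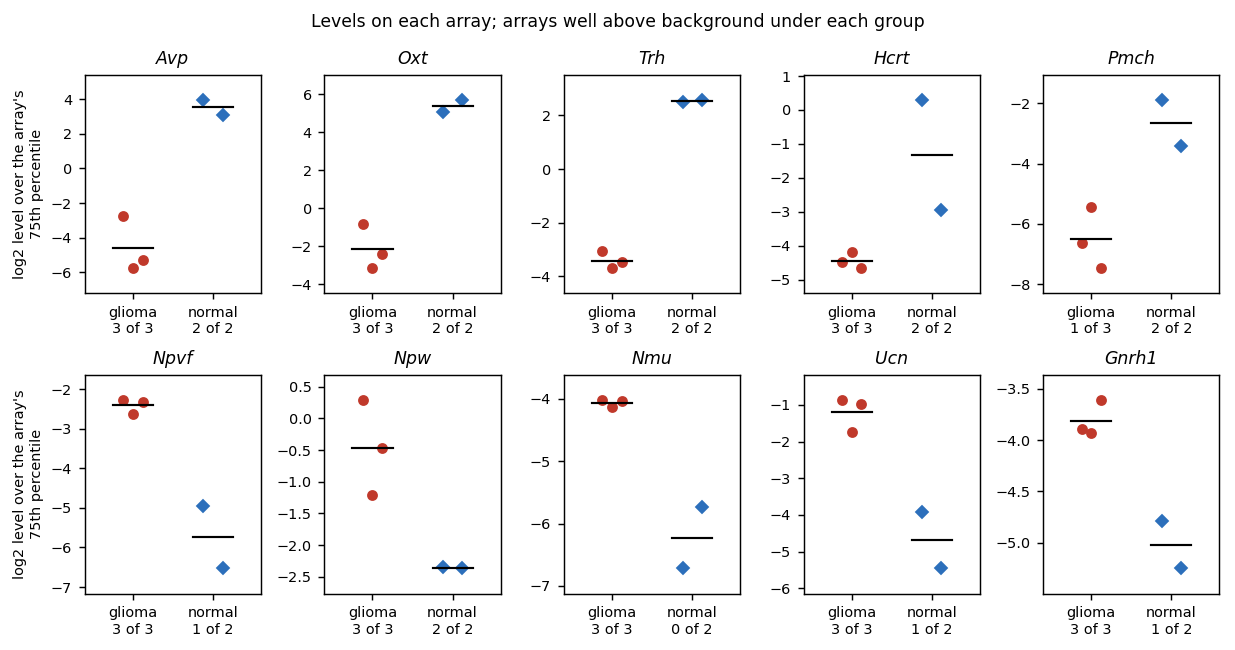
Log2 level over the array's 75th percentile (vertical axis, a separate scale in each panel) of 5 genes lower in glioma (top) and 5 higher (bottom), glioma on the left and normal brain on the right, with horizontal lines for group means and, under each group, the number of arrays well above background. Hcrt and Pmch differ between the 2 normal brain arrays, at 0.30 and -2.94 for Hcrt.

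Peptides of feeding, arousal and stress were split, with 6 of 12 lower, 3 higher and 3 not passing. Over all genes tested the shares were 27.8% lower and 23.6% higher. Pmch and Hcrt are made by neighbouring neurons of the lateral hypothalamus, and their peptides, melanin-concentrating hormone and orexin, act on feeding and wakefulness. Hcrt had levels of -4.49, -4.19 and -4.66 in glioma, against 0.30 and -2.94 in normal brain. Pmch had levels of -6.65, -5.43 and -7.47 in glioma, with 1 of 3 arrays well above background, against -1.88 and -3.43 in normal brain. Both were higher on normal brain array 1 than on array 2, Hcrt by 3.24 and Pmch by 1.55 log2 units, where the median difference between those arrays was 0.10 over the 34 members detected on all arrays. Pmch fell by 3.86 ± 0.74 (adjusted p = 0.0102), a call lost without normal brain array 1 (adjusted p = 0.0557), while the fall of Hcrt (-3.12 ± 0.94, adjusted p = 0.0421) lost its call without any 1 of the gliomas, with adjusted p between 0.0874 and 0.0993. The change of Hcrt was -1.5 without normal brain array 1, -4.74 without array 2 and -2.18 with normexp. That of Pmch was -3.08 without array 1, -4.64 without array 2 and -1.59 with normexp.

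Ucn3, the precursor of the stress-related peptide urocortin 3, did not rise well above background in any of the gliomas, at -6.95, -8.01 and -7.71, against -1.79 and -1.98 in normal brain. It was at least 17-fold lower in glioma, taking for each glioma array the higher of its lowest level well above background and the probe's own level (adjusted p of the fit = 0.000464). With normexp the fitted change of Ucn3 was -2.08, so the bound holds for the processed signal and not for that correction. Cartpt, the precursor of the appetite-reducing peptide CART, had levels of -1.58, 0.11 and -0.53 in glioma, against 1.69 and 1.63 in normal brain (-2.32 ± 0.50, adjusted p = 0.0149). Gal, the precursor of galanin, had levels of -0.63, -1.09 and -1.27 in glioma, against 0.75 and 0.54 in normal brain (-1.64 ± 0.24, adjusted p = 0.00391). Agrp, whose peptide promotes feeding by opposing melanocortins, had levels of -5.54, -5.11 and -4.43 in glioma, 2 of 3 well above background, against -3.13 and -3.65 in normal brain (-1.63 ± 0.37, adjusted p = 0.0177). Every glioma lay below both normal brains in these 4 genes, with the gliomas spread over 0.65 log2 units in Gal and 1.69 in Cartpt. The calls of Cartpt and Agrp were lost without either normal brain array, with adjusted p of 0.0757 and 0.107 without array 1, and 0.0716 and 0.0530 without array 2. The Agrp call was also lost without glioma 2 (adjusted p = 0.0523), and its change was -0.88 with normexp.

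The precursor of melanocortins and beta-endorphin, Pomc, did not pass. Its levels were 0.16, 0.06 and -0.54 in glioma, against 0.45 and -0.09 in normal brain, so the groups overlapped (-0.29 ± 0.29, 95% interval -1.03 to 0.46), and in the unscaled value table the change was 0.07. Pomc is also made in the pituitary gland. Of 10 pituitary genes 5 were not well above background on any array. The other 5 were tested, with 2 lower in glioma and 3 not passing, and 2 of the 10 were detected on all 5 arrays. The list summed to between 0.189 and 0.303 in glioma, against 0.254 and 0.301 in normal brain. A part of pituitary tissue in the Pomc level was not tested further.

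The 3 higher genes of this group were Ucn, Nmu and Npw. Ucn, the precursor of urocortin, a peptide of the Crh family, had levels of -0.87, -1.74 and -0.97 in glioma, against -3.93 and -5.46 in normal brain, where 1 of 2 arrays was well above background (3.50 ± 0.53, adjusted p = 0.00467). The rise of Ucn was 4.27 without normal brain array 1, 2.74 without array 2 and 1.98 with normexp. It moved opposite to its relatives Crh and Ucn3. Nmu, the precursor of neuromedin U, a peptide of gut and brain that reduces feeding, had levels of -4.02, -4.13 and -4.04 in glioma, against -6.72 and -5.73 in normal brain. It was not well above background in normal brain and was at least 2.74-fold higher in glioma (adjusted p = 0.00400). With normexp the fitted change of Nmu was 0.42 (adjusted p = 0.0450), below that bound. Npw, the precursor of neuropeptide W, was well above background on all arrays and had levels of 0.29, -1.21 and -0.47 in glioma, against -2.35 and -2.37 in normal brain (1.90 ± 0.45, adjusted p = 0.0193). Its gliomas spread over 1.5 log2 units, and the call was lost without either normal brain array (adjusted p = 0.0878 and 0.0902). Npb, which shares receptors with Npw in humans, did not pass on any of its 3 probes, with changes of 0.24, 0.16 and 0.42. Rln3, the precursor of relaxin-3, did not pass either (0.94 ± 0.45, 95% interval -0.20 to 2.08), with no normal brain array well above background and a change of -0.05 with normexp.

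Peptides of cortical and hippocampal neurons were all lower, 5 of 5. Sst, the precursor of somatostatin, which marks a class of inhibitory interneurons, had levels of 2.02, 1.14 and 1.06 in glioma, against 5.07 and 5.15 in normal brain (-3.71 ± 0.33, adjusted p = 0.000942). Cort, the precursor of the somatostatin relative cortistatin, had levels of -0.69, -0.44 and -1.71 in glioma, against 1.61 and 1.53 in normal brain (-2.51 ± 0.40). Vip, the precursor of vasoactive intestinal peptide, had levels of -2.31, -2.30 and -3.70 in glioma, against 0.55 and 0.54 in normal brain (-3.31 ± 0.48). The normal brains differed by at most 0.09 log2 units in these 3 genes, and the gliomas by 0.96 to 1.40. Cck, the precursor of cholecystokinin, made by many cortical neurons, had levels of 4.57, 3.53 and 3.76 in glioma, against 7.49 and 7.45 in normal brain, an 11.4-fold fall (-3.52 ± 0.34, adjusted p = 0.00115). Npy, the precursor of neuropeptide Y, had levels of 2.50, 1.01 and 1.29 in glioma, against 3.57 and 3.56 in normal brain (-1.96 ± 0.47, adjusted p = 0.0204). The call of Npy was lost without glioma 3 (adjusted p = 0.0547) or either normal brain array (0.0930 and 0.0913). GABAergic interneuron genes that are not peptides fell in 11 of 13 cases, with a median of -2.97.

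Opioid, tachykinin and neurotensin precursors were likewise all lower, 5 of 5. Penk, the precursor of enkephalins, had levels of 3.62, 3.39 and 3.63 in glioma, against 6.10 and 6.26 in normal brain (-2.63 ± 0.15, adjusted p = 0.000458). Pdyn, the precursor of dynorphins, had levels of 0.96, 0.63 and 0.31 in glioma, against 3.56 and 3.24 in normal brain (-2.77 ± 0.24, adjusted p = 0.000918), and a dimmer probe not detected in glioma went the same way, with -3.36 for the mean of both. Both opioid precursors are made by striatal projection neurons, whose other genes were lower in 10 of 10 cases with a median of -2.25. Tac1, the precursor of substance P, had levels of 2.73, 2.12 and 2.56 in glioma, against 4.09 and 4.13 in normal brain, a 3.1-fold fall (-1.63 ± 0.22). Tac2, the precursor of neurokinin B, had levels of -1.27, -1.95 and -2.60 in glioma, against 3.14 and 3.35 in normal brain, a 36.4-fold fall (-5.18 ± 0.40, adjusted p = 0.000703). Both tachykinin precursors passed, with the 95% intervals of their changes at -2.19 to -1.08 for Tac1 and -6.22 to -4.15 for Tac2. Nts, the precursor of neurotensin, had levels of -2.04, -2.39 and -3.21 in glioma, against 0.87 and 0.85 in normal brain (-3.41 ± 0.36, adjusted p = 0.00157).

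The last 3 precursors also fell. Adcyap1, which encodes the precursor of the pituitary adenylate cyclase-activating peptide PACAP, had levels of -2.92, -2.20 and -2.38 in glioma, against 1.2 and 0.99 in normal brain (-3.60 ± 0.25, adjusted p = 0.000598). Grp, the precursor of gastrin-releasing peptide, had levels of -2.54, -2.48 and -3.14 in glioma, against -0.52 and -0.60 in normal brain (-2.16 ± 0.24, adjusted p = 0.00185). Nmb, the precursor of the related neuromedin B, had levels of 0.04, 0.15 and 0.75 in glioma, against 1.14 and 1.18 in normal brain. Its fall of 0.85 ± 0.25 (adjusted p = 0.0399) was the smallest among the called members that fell, a second probe gave -0.83 ± 0.21, and in the unscaled value table it did not pass (adjusted p = 0.131). The Nmb call was also lost without glioma 1 (0.0788), glioma 2 (0.0963) or either normal brain array (0.158 and 0.172).

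The processing machinery was lower in 5 of 5 genes. Pcsk1, the convertase that makes the first cuts in many precursors, had levels of -4.77, -4.71 and -5.04 in glioma, against 0.41 and 0.36 in normal brain. That is a 37.4-fold fall (-5.22 ± 0.16, adjusted p = 0.000331), with gliomas spread over 0.33 log2 units, and the change was -3.79 with normexp. Pcsk2, the convertase of later cuts, had levels of 2.59, 2.29 and 1.98 in glioma, against 5.38 and 5.27 in normal brain (8.2-fold lower, -3.04 ± 0.22, adjusted p = 0.000603), and its second probe gave -3.50 ± 0.22. Cpe had levels of 6.75, 6.77 and 6.54 in glioma, against 8.23 and 8.26 in normal brain, a 2.95-fold fall (-1.56 ± 0.15, adjusted p = 0.00106), and its other 2 probes gave -1.57 and -2.09. The 95% interval of the change was -5.64 to -4.81 for Pcsk1, -3.59 to -2.48 for Pcsk2 and -1.93 to -1.19 for Cpe.

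Pcsk1n encodes proSAAS, an inhibitor of Pcsk1, and Scg5 encodes the 7B2 chaperone of Pcsk2. Pcsk1n had levels of 5.67, 5.24 and 5.33 in glioma, against 6.94 and 6.83 in normal brain (-1.47 ± 0.18, adjusted p = 0.00244). Scg5 had levels of 5.25, 3.87 and 5.09 in glioma, against 6.11 and 6.56 in normal brain (-1.60 ± 0.47, adjusted p = 0.0382). Glioma 2 lay well below the other gliomas in Scg5, and the call was lost without glioma 3 (adjusted p = 0.0541). It was also lost with the replicate number as a block (0.0676), which gives the same change of -1.77 and is not a separate check. Without either normal brain array the call was lost too, with changes of -1.82 without array 1 and -1.37 without array 2.

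The granule proteins were lower in 5 of 5 genes as well. Chga, chromogranin A, had levels of 3.37, 2.57 and 2.97 in glioma, against 5.60 and 5.52 in normal brain (-2.59 ± 0.26, adjusted p = 0.00132). Chgb, chromogranin B, had levels of 3.98, 3.14 and 3.61 in glioma, against 6.74 and 6.79 in normal brain (-3.19 ± 0.27, adjusted p = 0.000863). Scg2, secretogranin II, had levels of 2.71, 2.12 and 2.17 in glioma, against 5.32 and 5.45 in normal brain (-3.05 ± 0.23, adjusted p = 0.000649). Vgf, a granule protein that is itself cut into peptides, had levels of 3.12, 2.72 and 2.70 in glioma, against 5.75 and 5.64 in normal brain (-2.85 ± 0.19, adjusted p = 0.000529). These 4 genes fell by 6.03-fold to 9.13-fold, and every glioma lay below both normal brains. Scg3, secretogranin III, which binds chromogranin A to the granule membrane, had levels of 4.34, 4.19 and 3.62 in glioma, against 4.97 and 4.95 in normal brain (-0.91 ± 0.25, adjusted p = 0.0314). The call of Scg3 was lost in the unscaled value table (adjusted p = 0.177), without glioma 2 (0.0554) and without either normal brain array (0.146 and 0.139).

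The gliomas differed among themselves more than the normal brains did, by unlike measures, since a range over 3 arrays tends to exceed a difference between 2. Over the 34 members well above background on all arrays, the median range of the 3 gliomas was 0.72 log2 units and the median difference of the 2 normal brains 0.10, against 0.46 and 0.09 over the 14859 genes detected on all arrays. Glioma 1 had the highest of the 3 glioma levels in 22 of these 34 genes, glioma 2 in 10 and glioma 3 in 2. Over all 14859 genes the numbers were 5707, 3912 and 5240. The lowest level was on glioma 1 in 4 of the 34 genes, on glioma 2 in 14 and on glioma 3 in 16, against 4243, 4869 and 5747 over all 14859. Summed over the 43 genes, the linear level was 328, 251 and 260 on the glioma arrays, against 1230 and 1260 on the normal brain arrays. Pan-neuronal genes summed to 146, 104 and 131 on the same glioma arrays, so glioma 1 was highest and glioma 2 lowest in both sums. Such sums are carried by the brightest probes, and the gene counts above do not place glioma 2 below glioma 3. Whether neuronal content accounts for the order of the gliomas was not tested.

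**Figure D3:**
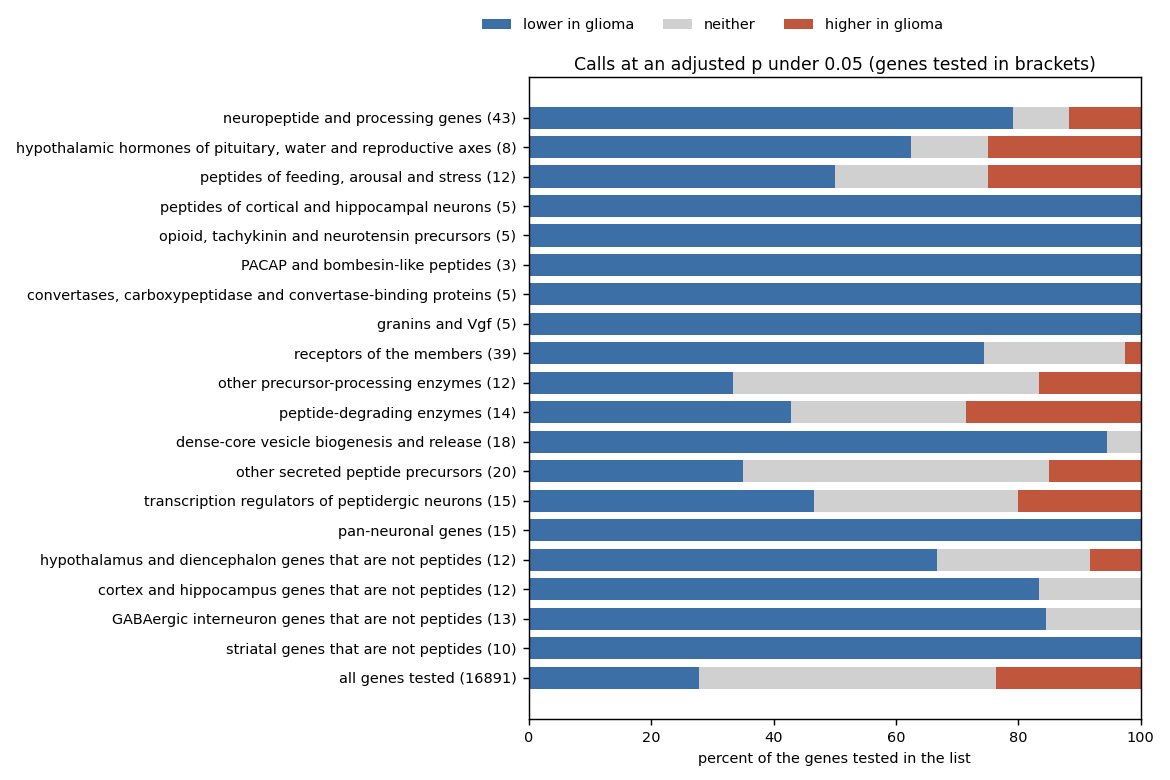
Percent of the genes tested in each list (number in brackets) that were lower in glioma, passed in neither direction or were higher in glioma at an adjusted p under 0.05 by limma. Granule, release and most peptide lists are mostly or wholly lower. Peptides of feeding, arousal and stress (6 of 12 lower, 3 higher) and other secreted peptide precursors (7 of 20 lower, 3 higher) are mixed. So are the lists of other processing enzymes and degrading enzymes. All genes tested stand at 27.8% lower and 23.6% higher.

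The receptors through which these peptides act were mostly lower. Of 48 receptor genes listed, 39 were tested, 29 were lower and 1 higher, beside 27.8% lower and 23.6% higher over all genes tested. Their median log2 change was -2.66, or -2.32 with undetected genes at their bound. Cckar, a cholecystokinin receptor, was not well above background in glioma and was at least 9.38-fold lower, and the other receptor of that peptide, Cckbr, fell by 4.25 ± 0.37. The neurotensin receptor Ntsr1 fell by 4.30 ± 0.23. Larger changes than these last 2, of -5.66 for the neuropeptide Y receptor Npy2r and -4.41 for the somatostatin receptor Sstr2, came from probes well above background in 2 and 1 of the 3 gliomas. The somatostatin receptor Sstr1 rose, with levels of 1.62, 2.19 and 1.84 in glioma, against 1.02 and 0.94 in normal brain (0.91 ± 0.21, adjusted p = 0.0185).

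Enzymes that act on peptides outside the listed members were mixed, beside 23.6% higher and 27.8% lower over all genes tested. Among 12 other precursor-processing enzymes 2 rose and 4 fell, with a median of -0.10. Pcsk5, a further convertase, fell by 3.05 ± 0.21, the carboxypeptidase Cpm by 1.21 ± 0.19 and the amidating enzyme Pam by 0.90 ± 0.18. Qpct, which closes the amino end of peptides such as thyrotropin-releasing hormone into a pyroglutamate ring, had levels of 4.44, 3.88 and 4.41 in glioma, against 1.13 and 1.06 in normal brain, a rise of 3.14 ± 0.22 (adjusted p = 0.000584) beside the fall of Trh itself. The lysosomal protease Ctsl rose by 0.82 ± 0.24. Of 14 peptide-degrading enzymes 4 rose and 6 fell, with a median of -0.53. Dpp4, which removes dipeptides from peptides such as neuropeptide Y, rose by 3.28 ± 0.26, the neurotensin-cutting Nln by 1.73 ± 0.20 and Prep by 1.11 ± 0.15. Neprilysin (Mme) was not well above background in glioma and was at least 7.73-fold lower. Trhde, which breaks down thyrotropin-releasing hormone, fell by 2.97 ± 0.24 and Ace by 2.23 ± 0.22.

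Genes of dense-core granule formation and release fell in 17 of 18 cases, with a median of -2.64, or -2.46 with the undetected gene at its bound. The Rab effector Rph3a fell by 4.34 ± 0.38, the vesicle protein Syt4 by 4.23 ± 0.36 and Baiap3, which acts in granule traffic, by 3.67 ± 0.24. Pick1 did not pass (0.08 ± 0.16). Of 28 further secreted peptide precursors 20 were tested, with 7 lower and 3 higher and a median of -0.77. Beside these stand 27.8% lower and 23.6% higher over all genes tested. Nppc, Calca and Apln, precursors of C-type natriuretic peptide, calcitonin gene-related peptide and apelin, fell, with changes of -3.43, -3.16 and -2.46. Ghrl, Npff and Spx, precursors of ghrelin, neuropeptide FF and spexin, rose by 1.2, 1.13 and 1.01.

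Among 15 tested transcription regulators of peptidergic neurons 3 rose and 7 fell, beside 23.6% higher and 27.8% lower over all genes tested. Rest, the repressor that keeps neuronal genes silent in other cells, had levels of 0.53, 0.64 and 0.32 in glioma, against -1.88 and -1.81 in normal brain, a rise of 2.34 ± 0.16 (adjusted p = 0.000545). Its corepressor Rcor1 (0.39 ± 0.18) and the cAMP-response factor Creb1 (0.25 ± 0.16) did not pass, while the Creb coactivator Crtc1 fell by 1.44 ± 0.15. Pou3f2, a factor of hypothalamic peptide neurons, rose by 1.01 ± 0.19, and Sox14, detected in glioma only, was at least 1.59-fold higher. Nkx2-1, needed for the ventral hypothalamus and detected in normal brain only, was at least 5.21-fold lower. Dlx1 fell by 3.60 ± 0.33 and Lhx6, a factor of interneurons, by 2.21 ± 0.61. Isl1, a factor of hypothalamic and striatal neurons, changed by -3.70 on a probe well above background in 2 of 3 gliomas. Otp was detected well above background on none of the arrays, and Sim1, with Otp needed for vasopressin and oxytocin neurons in development, was well above background on normal brain array 2 only. Of 12 tested hypothalamic and diencephalic genes that are not peptides, 8 fell and 1 rose, with a median of -2.33, or -2.17 with undetected genes at their bound.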

How the data were processed

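Probe intensity was measured on 5 arrays and, per the file headers, read out by Feature Extraction 10.7.3.1 (Agilent). The processed signal is an intensity that this software had corrected for background, and the well-above-background, saturation and outlier flags are other values from the same deposited files. The deposited value table holds log2 of that processed signal with no scaling between arrays (Pearson's r = 1 with the scanner values). From the scanner files, each log2 processed signal was set relative to the 75th percentile of the spots on its array, control spots left out. Outlier spots were left out, spots of a probe were averaged, and a gene was given its brightest probe over all arrays. Genes detected well above background on 2 or more arrays entered the test with limma 3.58.1 in R 4.3.3 (lmFit, eBayes), with Benjamini-Hochberg adjustment over 16891 genes at 0.05. The script was tested on simulated data.

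Probes were named by matching RefSeq accessions to GRCm38.p6, which named 28026 of 55681 probes. Coordinates of the array grid were not used, since they follow another build. Precision is limited by the number of arrays. The members and lists were chosen with earlier results of these data known. All members are named, and in each pathway list the 3 largest falls and rises among called genes that were detected on all arrays or have a lower bound. Rest is always named, and Rcor1, Creb1, Crtc1, Sim1, Otp, Pick1, Npy2r, Sstr2 and Isl1 were named after their values were seen. Alternatives were quantile normalization, the value table, normexp background correction (on median signals, chosen after seeing the data), other filters on dim probes, the mean of probes, a replicate block, and each array left out.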

Additional observations from a re-analysis of the deposited data

How the results depend on the processing

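Of the 43 genes, 34 were lower and 5 higher in glioma with the 75th percentile scaling, and 34 and 5 under quantile normalization and without a filter on dim probes. Requiring detection on all arrays left 34 members, with 30 lower and 1 higher. Gnrh1, Npvf, Nmu and Ucn, higher in the main test, dropped out because they were not detected on every normal brain array. Kiss1, Pmch, Agrp and Ucn3, lower in the main test, dropped out because they were not detected on every glioma array. The median log2 change of the members was -2.24 in the unscaled value table and -2.08 with normexp on median signals. Pomc turned to 0.07 in the value table, Rln3 to -0.05 with normexp and Ghrh to -0.09 without glioma 1, and none of these passed in any of those settings. The cause was not tested. The change of Ghrh lay between -0.09 and 0.61 with single arrays left out and was 0.73 in the value table. In the value table Hcrt, Nmb and Scg3 lost their calls, and Gnrh1 lost its call with normexp (0.21, adjusted p = 0.233) and for the mean of probes (0.19). Leaving out each array gave 26 to 32 lower members, 3 to 5 higher members and medians of -2.71 to -2.38. Over all genes it gave 2435 to 5048 lower and 1958 to 4385 higher genes. Without a normal brain array, the lone normal brain is assumed to vary like the gliomas. Ucn3 was then detected on too few arrays to be tested. Samples of the same replicate number showed little joint deviation (correlations of 0.04 and 0.06 over 31302 probes), and the numbers were not taken as pairs. The deviations of 2 normal brains mirror each other, so this check is limited and cannot exclude a pairing. With the replicate block, 32 members were lower and 5 higher, with a median of -2.60, and Hcrt (adjusted p = 0.0826) and Scg5 (0.0676) lost their calls. Glioma 3 has no normal brain of its number, so the block gives the changes found without glioma 3 and is not a separate check. Normexp on mean signals was not run, since the files used here hold no such column. Probes near background limit what can be said of Gnrh1, Npvf, Nmu, Rln3, Ucn, Ucn3, Pmch and Agrp, and of Kiss1 and Avp in glioma. With normexp these members and Trh, Crh, Hcrt and Pcsk1, 14 in all, moved by over 1.5 times.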

Other observations

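Some values outside the comparisons were picked after they were seen, and no test was made on them. Probes of Lhx6, the tachykinin receptor Tacr2, the opioid receptor Oprm1 and the melanocortin receptor Mc3r each had their lowest glioma level on glioma 1 and their highest on glioma 3. Oprm1, for example, had levels of 2.65, 4.07 and 4.68 in glioma, against 5.78 and 5.83 in normal brain, and Mc3r had -2.68, -0.20 and 0.98 in glioma, against -1.19 and -1.36 in normal brain. This is not the order of the neuropeptide genes, most of which were highest on glioma 1. Npas4, an activity-dependent transcription factor of neurons, had levels of 1.92, -0.53 and -4.20 in glioma, against 1.97 and 1.83 in normal brain, and did not pass (adjusted p = 0.231 by limma). Iapp, the precursor of amylin, was well above background on glioma 1 only, with levels of -2.63, -7.97 and -6.12 in glioma, against -7.18 and -7.07 in normal brain.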
